A study of Mus musculus with 16 samples.

Results

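The genes described here encode 8 proteins of the ciliary transition zone: Cep290, Rpgrip1l, Nphp4, Mks1, B9d1, B9d2, Tctn1 and Tmem67. They were chosen by their function out of 21887 protein-coding genes of the RefSeq table (the autosomes, X and Y), with no measured value in the rule. Earlier results of these data were known when they were chosen. For each gene, peaks were taken that overlapped its RefSeq body (GRCm38.p6, the assembly of the mm10 peak coordinates) or the 10 kb beyond either end, and those within 1 kb of an annotated end were marked. All coordinates count from 1.

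The transition zone is the short region at the base of a cilium, just above the basal body, where protein bridges tie the microtubule doublets to the surrounding membrane. It acts as a gate that controls which proteins enter and leave the cilium. Its proteins form modules, among them the MKS complex (the B9 domain proteins, the tectonics and several transmembrane proteins) and the NPHP module, held by scaffolds such as Cep290 and Rpgrip1l. Mutations in these genes cause Meckel, Joubert and nephronophthisis syndromes, and the connecting cilium of photoreceptors is an elongated transition zone. Rfx3 is a winged-helix factor of the RFX family, which binds the X-box, an imperfect inverted repeat found at many ciliary genes. Foxn3 and Foxn4 are forkhead factors, and Foxn4 is known for its part in amacrine and horizontal cell specification in the retina.

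The data are CUT&RUN peak lists, in which DNA cut free next to an antibody-bound protein is sequenced, from pooled retinas of outbred CD-1 mouse embryos at embryonic day 16, with about 300000 cells per assay. The antibody libraries numbered 4 for Foxn3 (in 2 experiments), 2 for Foxn4 and 2 for Rfx3, and 8 further libraries were IgG controls. Nuclease digestion lasted 1 h, or about 12 h for the Foxn4 libraries and their mouse IgG controls, whereas the other factors had rabbit IgG controls. Each factor has a single list (2794 peaks for Foxn3, 2956 for Foxn4 and 3981 for Rfx3), with no value per library, so nothing below has a spread between replicates, depth behind a peak is unknown, and no test was run. The retina holds many cell types at this stage, and in which of them a site was occupied cannot be read from these lists.

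The promoter sequences of the members are shown first because the peaks lie on them. They come from RefSeq (GRCm38.p6) and run from 250 bases before to 50 after an annotated start site, 5′ to 3′ along the gene. Promoter windows were found for 7 of the 8 members, and Tmem67 was not matched. For Nphp4 the window at the peaks is given out of 3, and for B9d2 the first of 2. Capitals mark every X-box match, defined as an arm GTNNC, any 4 bases and an arm GNNAC, which reads the same on both strands, and every lone arm GTTGCC on either strand. B9d2 was added after its values were seen, as the member without a Foxn3 peak.
Cep290 (chr10:100487332-100487631, plus strand): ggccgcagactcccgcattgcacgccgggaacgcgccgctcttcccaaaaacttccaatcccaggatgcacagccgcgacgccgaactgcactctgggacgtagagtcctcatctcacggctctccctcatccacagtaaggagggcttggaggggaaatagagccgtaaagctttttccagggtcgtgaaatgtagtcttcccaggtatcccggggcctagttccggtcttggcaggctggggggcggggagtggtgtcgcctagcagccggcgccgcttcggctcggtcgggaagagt
Rpgrip1l (chr8:91313173-91313472, minus strand): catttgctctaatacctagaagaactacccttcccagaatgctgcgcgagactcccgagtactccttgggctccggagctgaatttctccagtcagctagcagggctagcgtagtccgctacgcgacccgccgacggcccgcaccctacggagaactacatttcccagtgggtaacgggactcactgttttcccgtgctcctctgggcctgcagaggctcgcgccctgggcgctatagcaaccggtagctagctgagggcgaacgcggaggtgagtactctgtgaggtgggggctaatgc
Nphp4 (chr4:152477488-152477787, plus strand): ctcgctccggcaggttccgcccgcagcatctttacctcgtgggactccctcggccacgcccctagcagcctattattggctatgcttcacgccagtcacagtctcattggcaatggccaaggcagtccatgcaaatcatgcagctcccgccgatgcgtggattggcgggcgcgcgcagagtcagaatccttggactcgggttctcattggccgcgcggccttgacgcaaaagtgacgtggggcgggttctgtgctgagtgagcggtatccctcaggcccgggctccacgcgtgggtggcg
Mks1 (chr11:87852965-87853264, plus strand): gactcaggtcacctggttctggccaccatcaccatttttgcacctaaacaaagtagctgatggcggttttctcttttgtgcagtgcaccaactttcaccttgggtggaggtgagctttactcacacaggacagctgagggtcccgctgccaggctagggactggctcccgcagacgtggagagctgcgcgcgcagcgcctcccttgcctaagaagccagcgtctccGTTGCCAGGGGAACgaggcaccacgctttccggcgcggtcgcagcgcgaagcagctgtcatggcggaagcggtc
B9d1 (chr11:61504894-61505193, plus strand): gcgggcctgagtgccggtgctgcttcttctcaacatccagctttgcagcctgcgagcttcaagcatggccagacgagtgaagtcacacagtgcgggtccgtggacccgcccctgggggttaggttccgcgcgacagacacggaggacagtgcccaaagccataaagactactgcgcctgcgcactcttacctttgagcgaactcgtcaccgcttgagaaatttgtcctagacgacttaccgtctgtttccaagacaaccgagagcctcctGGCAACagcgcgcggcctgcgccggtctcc
B9d2 (chr7:25680530-25680829, plus strand): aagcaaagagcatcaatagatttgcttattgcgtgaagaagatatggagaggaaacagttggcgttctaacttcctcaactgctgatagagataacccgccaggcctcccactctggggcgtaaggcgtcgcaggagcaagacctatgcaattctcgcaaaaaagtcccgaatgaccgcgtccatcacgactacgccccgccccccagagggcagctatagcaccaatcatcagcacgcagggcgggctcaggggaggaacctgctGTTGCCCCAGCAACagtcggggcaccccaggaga
Tctn1 (chr5:122264411-122264710, minus strand): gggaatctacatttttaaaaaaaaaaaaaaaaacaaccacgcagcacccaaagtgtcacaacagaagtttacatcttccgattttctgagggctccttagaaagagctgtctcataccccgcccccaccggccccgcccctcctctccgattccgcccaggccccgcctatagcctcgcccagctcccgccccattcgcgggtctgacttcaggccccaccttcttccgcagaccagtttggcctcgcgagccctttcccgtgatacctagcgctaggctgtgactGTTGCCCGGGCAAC

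Rfx3 had a peak at every member and Foxn3 at all but B9d2, while Foxn4 had none. Inside the genes or within 10 kb, Rfx3 peaks were found at 8 of 8 members, against 19.2% of all protein-coding genes, and Foxn3 peaks at 7 of 8, against 15.3%. Foxn4 peaks were found at 0 of 8, against 10.5%. The same counts held within 1 kb of an annotated end: 8 for Rfx3 (11% of all genes), 7 for Foxn3 (9.02%) and 0 for Foxn4 (4.94%). With a background of 4.94%, fewer than 1 bound gene would be found among 8 on average, so the absence of Foxn4 peaks is not set apart from all genes by its count. Among genes with both Foxn3 and Rfx3 within 1 kb, the share with Foxn4 was higher, 40.8%, against 0 of 7 members. This difference was not tested. Members differ from genes in general in length, with a median of 37.8 kb (5.78 to 96.3 kb) against 17.2 kb. A longer gene body enlarges the region searched under the 10 kb rule, but not the number of ends. Genes of like length were not compared.

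**Figure D1:**
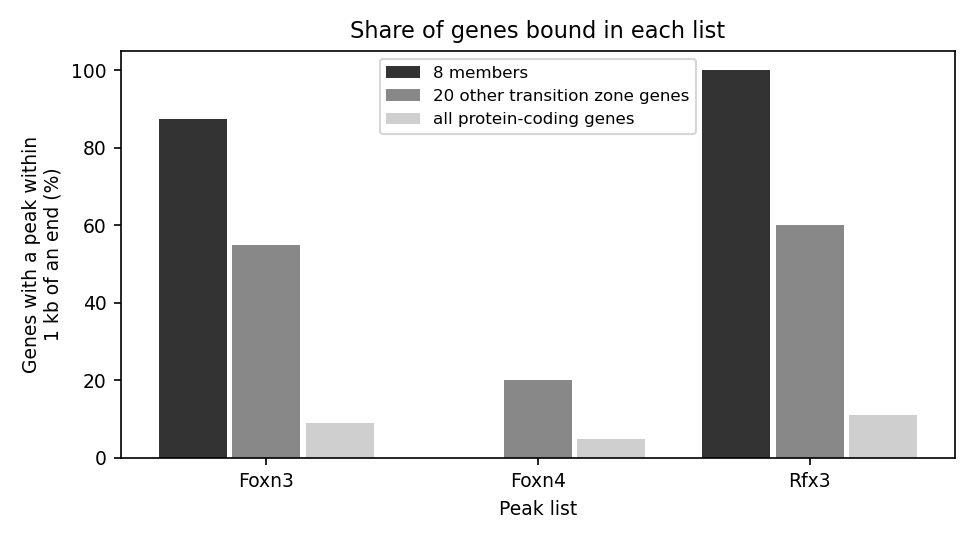
Share of genes (vertical axis, percent) with a peak within 1 kb of an annotated end in each peak list (horizontal axis), for the 8 members, 20 other transition zone genes and all 21887 protein-coding genes. Member bars stand at 87.5% for Foxn3, 0% for Foxn4 and 100% for Rfx3, against 9.02%, 4.94% and 11% of all genes.

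Only 17 peaks made up this set, 8 of Foxn3 and 9 of Rfx3, and 15 of them lay within 1 kb of an end. In the 7 members with a promoter window, each Rfx3 peak covered an annotated start site, and so did each of the 6 Foxn3 peaks there. No peak of these 7 genes lay elsewhere in the gene body, at the 3′ end or in the 10 kb to either side. The start of transcription was also the usual end for other genes: of 1453 genes over 10 kb with a known strand and an Rfx3 peak within 1 kb of an end, 94.2% had it at the 5′ end only, and of 1213 such Foxn3 genes 95.1%. Counting from the start sites of the promoter table, an alternative chosen after seeing the data, 6 of 7 members had Foxn3 within 1 kb (9.76% of 17492 genes), 7 had Rfx3 (11.7%) and 0 had Foxn4 (5.35%).

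**Figure D2:**
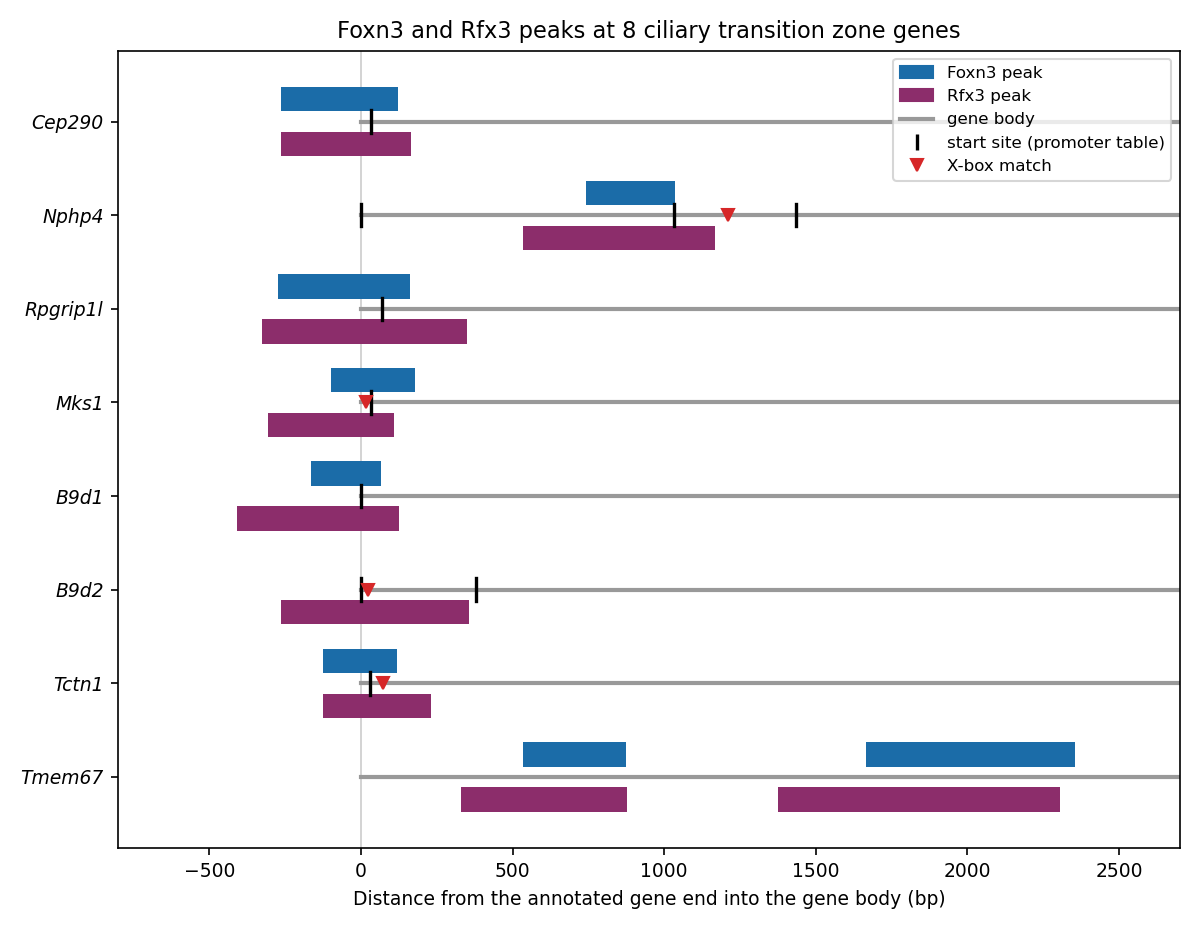
Position of Foxn3 and Rfx3 peaks (bars) relative to the annotated gene end at which they lie (horizontal axis, bp, positive into the gene body) for each member (rows). Black ticks are start sites of the promoter table, none being given for Tmem67, and red triangles are X-box matches in the promoter windows. Peaks of both factors lie over each other at the start sites of 6 genes, B9d2 has Rfx3 alone, and Tmem67 has 2 pairs of peaks.

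The scaffold genes Cep290 and Rpgrip1l each had a single overlapping pair of peaks at a promoter shared with another gene. Cep290 (chromosome 10, 100487548 to 100575671) encodes a large coiled-coil protein that links microtubules to the membrane in the transition zone, and its loss causes retinal dystrophy. Its Foxn3 peak spanned 100487284 to 100487669 (score 43.9) and its Rfx3 peak 100487283 to 100487714 (score 180). Scores are the authors', of unstated scaling, and serve here only to rank peaks within a list. The Foxn3 peak outscored 65% of its list and the Rfx3 peak 77.1% of its list. The peaks began 1 bp apart, and their midpoints were 22 bp apart, the closest of any member. Both also covered the start site of Tmtc3, which is transcribed in the opposite direction from a site 235 bp away.

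Rpgrip1l (chromosome 8, 91217030 to 91313291, minus strand) encodes a scaffold on which other transition zone proteins assemble. Its Foxn3 peak lay at 91313129 to 91313564 (score 47.7, above 67.5% of its list) and its Rfx3 peak at 91312942 to 91313618 (score 106, above 62.5%). The whole Foxn3 peak lay inside the Rfx3 peak. Both covered the start site of Fto, an RNA demethylase gene that runs the other way from 303 bp apart. The peaks therefore cannot be given to Rpgrip1l or to Fto from position alone.

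Nphp4 encodes a protein of the NPHP module, mutated in nephronophthisis with retinal degeneration. The gene (chromosome 4, 152476706 to 152563184) has 3 start sites in the promoter table, and the peaks fell at the middle of these. The Foxn3 peak at 152477449 to 152477742 (score 57.9, above 74.3% of its list) covered the start site at 152477738, and the Rfx3 peak at 152477240 to 152477872 (score 148, above 72.2%) held the whole Foxn3 peak. The outermost annotated end lay 743 bp from the Foxn3 peak and 534 bp from the Rfx3 peak. Within 500 bp of an end, Nphp4 would not count as bound by either factor. Kcnab2, a potassium channel subunit gene on the opposite strand, starts 189 bp from the Nphp4 site and is covered by both peaks.

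The products of the B9 domain genes Mks1, B9d1 and B9d2 bind each other within the MKS complex. All of these genes had an Rfx3 peak over a start site, and Mks1 and B9d1 also had a Foxn3 peak there. Mks1 (chromosome 11, 87853182 to 87863803) carried Foxn3 at 87853083 to 87853361 (score 133.6, above 90.8% of its list) and Rfx3 at 87852876 to 87853292 (score 290, above 86.2%). The Foxn3 peak was centred 7 bp from the start site and the Rfx3 peak 131 bp from it, so the Mks1 peaks overlapped by only 210 bp and their midpoints were 138 bp apart. B9d1 (chromosome 11, 61505144 to 61512931) had a narrow Foxn3 peak of 232 bp at 61504978 to 61505209, with a score of 31.8 near the middle of the list (above 51.5%). Its Rfx3 peak, at 61504735 to 61505269, ranked much higher in its own list (score 291, above 86.4%). No other protein-coding gene had an end within 1 kb of the Mks1 or B9d1 peaks.

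B9d2 (chromosome 7, 25680780 to 25686562) is the member with Rfx3 alone. Its Rfx3 peak at 25680517 to 25681135 (score 221) outscored 81.2% of the list. That was more than the Rfx3 peaks of Cep290, Nphp4, Rpgrip1l and the lower-ranked one of Tmem67. It was less than those of Mks1, B9d1, Tctn1 and the higher-ranked one of Tmem67. Foxn3 peaks were present at all of these other members. The nearest Foxn3 peak was 21.5 kb from B9d2. Tmem91 has an annotated end 894 bp from the Rfx3 peak, but its nearest start site is 5351 bp away. Across the genome, 70.5% of the 2409 genes with an Rfx3 peak within 1 kb also had a Foxn3 peak there, against 7 of 8 members.

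The 2 membrane-associated members carried the highest-ranked peak of each factor, Tctn1 for Foxn3 and Tmem67 for Rfx3. Tctn1 (chromosome 5, 122239495 to 122264489, minus strand) encodes tectonic-1, a secreted or membrane-bound MKS complex protein needed for Hedgehog signalling. Its Foxn3 peak at 122264370 to 122264613 (score 188.8) outscored 94.6% of its list and its Rfx3 peak at 122264258 to 122264613 (score 409) 91.4%. The upper edge of both peaks was the same base. No other protein-coding gene had an end within 1 kb. Tctn1, Mks1 and B9d1 are therefore the 3 members whose peaks have no second protein-coding gene at that distance. The other 5 share theirs, B9d2 only with an end of Tmem91 and not with a start site. Of all 2409 genes with an Rfx3 peak within 1 kb, 38.4% share one.

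Tmem67 encodes meckelin, a transmembrane protein mutated in Meckel syndrome. It was the only member with more than 1 peak of a factor (chromosome 4, 12039355 to 12090020). Both pairs of peaks lay inside the gene. The stronger pair was the Foxn3 peak at 12087667 to 12088354 (score 128, above 90.3% of its list) and the Rfx3 peak at 12087715 to 12088646 (score 524, above 94.2%). These peaks were 1666 and 1374 bp from the upper end of the gene, so the 1 kb rule did not mark them, and an end of Rbm12b2 lay within 1 kb of the Rfx3 peak. The pair that it did mark was weak: Foxn3 at 12089145 to 12089484 (score 13.1, above 8.45%) and Rfx3 at 12089144 to 12089690 (score 32, above 14.1%). That pair also overlapped Rbm12b2, an RNA-binding protein gene whose annotated body begins inside Tmem67. The count of 7 members with Foxn3 and 8 with Rfx3 within 1 kb therefore includes Tmem67 through its weak peaks, while the 10 kb window holds both pairs.

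**Figure D3:**
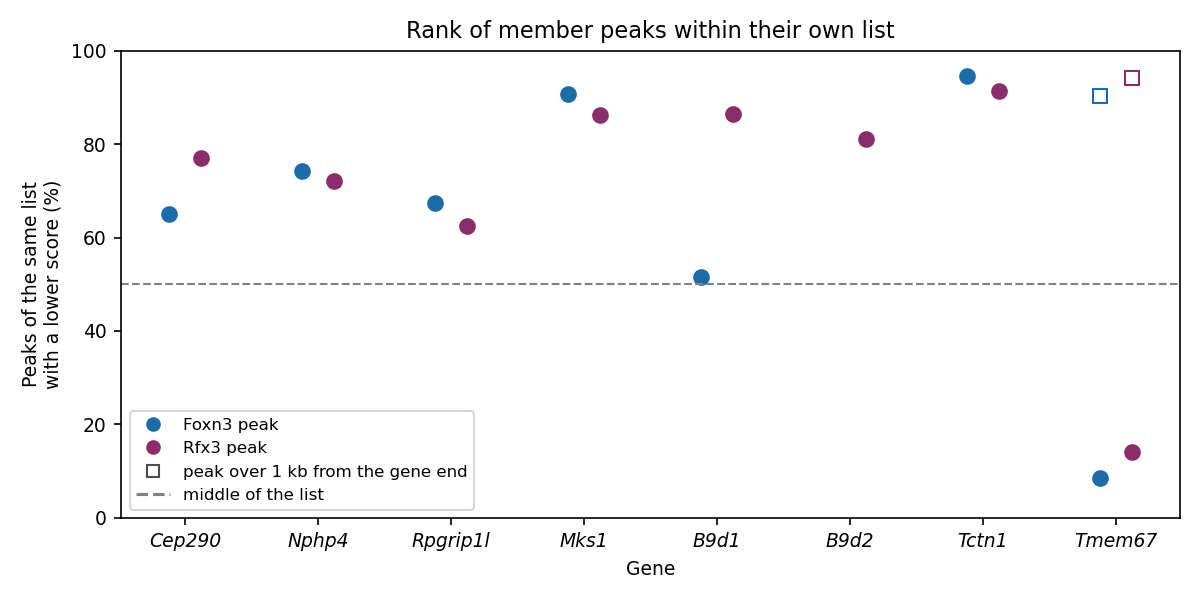
Rank of each member peak within its own list, as the percent of that list with a lower score (vertical axis), for each gene (horizontal axis). Filled circles are peaks within 1 kb of the gene end, open squares the inner Tmem67 pair, and the dashed line is the middle of a list. All points but the weak Tmem67 pair lie above the line, with the B9d1 Foxn3 peak closest to it at 51.5%.

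Scores of the members were mostly in the upper part of each list. Of the 8 Foxn3 peaks 7 scored at or above the list median, and of the 9 Rfx3 peaks 8. The median member peak outscored 70.9% of the Foxn3 list (lowest 8.45%, highest 94.6%) and 81.2% of the Rfx3 list (lowest 14.1%, highest 94.2%). Among peaks within 1 kb of an end, members had a median of 67.5% for Foxn3 and 79.2% for Rfx3, against 52.8% and 46.4% over all such peaks of the genome. Such peaks at 20 other transition zone genes had medians of 79.5% for Foxn3 and 69.9% for Rfx3, so high ranks were not particular to the members. With the lower-scoring part of each list left out, up to its median, 6 members kept Foxn3 within 1 kb of an end (5.01% of all genes), 7 kept Rfx3 (5.38%) and 0 had Foxn4 (2.92%). Tmem67 was the gene lost from both counts.

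Foxn3 and Rfx3 peaks overlapped by at least 1 bp at all 7 members that had both. In 6 of the 8 overlapping pairs the Foxn3 peak lay entirely inside the Rfx3 peak, and the smallest share of a Foxn3 peak inside Rfx3 was 75.3%, at Mks1. Rfx3 peaks were the wider in every pair, from 1.12 times at Cep290 to 2.31 times at B9d1. Median widths were 317 bp for the members' Foxn3 peaks and 547 bp for their Rfx3 peaks, against 384 and 469 bp over the whole lists. Midpoints of the member pairs were a median of 79 bp apart (22 to 170 bp), against 46.5 bp over all 2272 overlapping pairs. Neither width nor distance was tested.

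X-box matches were found in the promoter windows of 4 members, and in 3 of them inside the peaks. Over the whole promoter table, 2196 of 27025 genes held a match in a window. Tctn1 had GTTGCCCGGGCAAC at 122264411 to 122264424, 18 bp from the Rfx3 midpoint and 74 bp from the Foxn3 midpoint. B9d2 had GTTGCCCCAGCAAC at 25680796 to 25680809, 23.5 bp from the Rfx3 midpoint. Mks1 had GTTGCCAGGGGAAC at 87853191 to 87853204, which was 24.5 bp from the Foxn3 midpoint and 113.5 bp from the Rfx3 midpoint. The fourth, GTCTCCTAGGTAAC of Nphp4 at 152477911 to 152477924, lay in the window of the next start site, outside both peaks. Over all windows that met a peak and held a single such match inside it, the median distance to the midpoint was 73 bp for 362 Rfx3 matches (quartiles 29.5 and 126.9 bp) and 52 bp for 276 Foxn3 matches.

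The X-box pattern was found in 7.17% of all 32851 promoter windows and in 20.8% of the 2448 that met an Rfx3 peak. The share was similar, 20.1%, for the 1965 windows that met a Foxn3 peak. The X-box pattern was in 3 of the 8 member windows that met an Rfx3 peak. Most of these windows, as most of all those meeting Rfx3, therefore did not hold these letters. The windows cover only part of the member peaks, and peak sequence outside them was not searched. A narrower pattern, with the arms GTNNCC and GGNNAC and any 2 bases between them, was held by 1.88% of all windows, 11% of those meeting Rfx3, and the windows of Tctn1 and Mks1 and the third of Nphp4. Of the windows meeting Foxn3, 10.1% held the narrower pattern. The narrower pattern is contained in the wider one, so its matches are the same sites. The arm GTTGCC was in 12.5% of all windows, 27.3% of those meeting Rfx3 and 26.2% of those meeting Foxn3. It was in 4 of the 8 member windows meeting Rfx3, and of these only at B9d1 did it stand outside an X-box match there, as GGCAAC at 61505164 to 61505169. Cep290 and Rpgrip1l had neither the X-box pattern nor the arm in these windows. The same held for the Nphp4 window at the peaks and the second window of B9d2.

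For the forkhead factors, the core GTAAACA was searched on both strands and was in none of the 10 member windows and in 3.65% of all windows. It was in 2.14% of windows meeting a Foxn3 peak, 1.43% for Foxn4 and 1.96% for Rfx3, against 3.81% of windows meeting no peak. The other known FOXN core, GACGC, was in 27.2% of all windows. This core was in 56.6% of the 1965 meeting a Foxn3 peak, 55.9% of the 1050 meeting Foxn4 and 53.8% of those meeting Rfx3. Among the members it was in windows of Cep290, Nphp4, Mks1 and B9d2. B9d2, without a Foxn3 peak, had 2 matches in the printed window and 3 in the second, and B9d1, Rpgrip1l and Tctn1, with Foxn3 peaks, had none. The member windows held 56% to 63.3% G and C, and the part of base composition in these matches was not tested. A match is a description of the sequence and not of binding.

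The 20 other transition zone genes, listed for comparison, had the same order of factors, which was also the order over all genes. Within 1 kb of an end, 12 had an Rfx3 peak (11% of all genes), 11 a Foxn3 peak (9.02%) and 4 a Foxn4 peak (4.94%). No list had a peak there at 7 of the 20 (86.8% of all genes, and 0 of 8 members). Foxn3 and Rfx3 without Foxn4, the state of 7 of the 8 members, was found at 7 of these 20 genes and at 4.6% of all genes. All 3 factors were found at Tctn3, Tmem107 and Tmem218, and across the genome at 3.16% of genes. At Tctn3, a tectonic like Tctn1, the Foxn4 peak lay at 40612155 to 40612341 on chromosome 19, inside the Foxn3 and the Rfx3 peak, and Entpd1 shares the site. At Tmem218 (chromosome 9) the Foxn4 peak was at 37208066 to 37208331, over the start site. At Tmem107 (chromosome 11) Foxn3 and Rfx3 peaks lay at both ends of the gene, and the Foxn4 peak, at 69073408 to 69073787, was at the 3′ end.

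**Figure D4:**
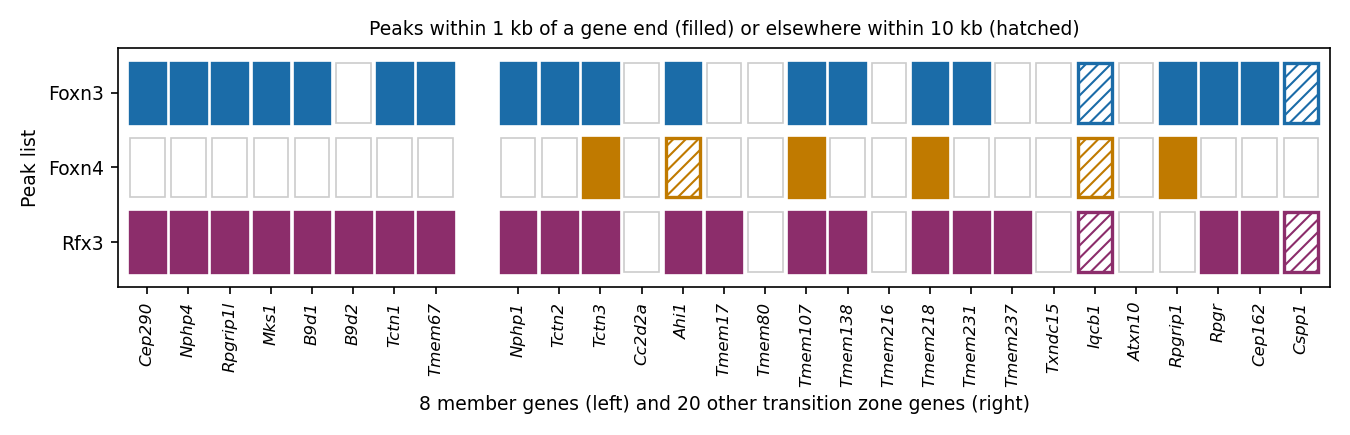
Presence of a peak in each list (rows) for the 8 members (left block) and 20 other transition zone genes (right block). Filled cells mark a peak within 1 kb of a gene end, hatched cells a peak elsewhere in the gene or within 10 kb, and empty cells none. The Foxn4 row is empty for all 8 members. It is filled for 4 of the 20 other genes, and filled or hatched for 6 of them (10.5% of all genes within 10 kb).

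Foxn3 with Foxn4 but without Rfx3 was found at 0 members, 1 of the 20 other genes and 0.288% of all genes. Rfx3 alone, the state of B9d2, was found at Tmem17 and Tmem237, which encode transmembrane proteins of the same complex, and at 2.68% of all genes. The Rfx3 peak of Tmem17 lay at 22511890 to 22512515 on chromosome 11 (score 137, above 69.9% of its list). That of Tmem237 lay at 59119709 to 59120265 on chromosome 1 (score 127, above 67.9%), within 1 kb of Mpp4 as well. Among all genes with both Foxn3 and Rfx3 within 1 kb, 40.8% also had Foxn4, against 0 of 7 members and 3 of 10 of the other transition zone genes. Foxn4 peaks nearest to the members lay 10.6 kb from B9d1, 21.5 kb from B9d2, 52.6 kb from Rpgrip1l and 223 kb or more from the rest. Foxn4 binding, the longer digestion and the mouse control cannot be told apart in any comparison with the other lists.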

How the data were processed

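CUT&RUN peak lists of the Foxn3, Foxn4 and Rfx3 antibodies were used as deposited; no values per library or IgG control were analysed here. Per the submitters' processing notes, cutadapt, Bowtie2, UMI-tools, bedtools, SEACR and the mm10 build were used, with no role or version given. The deposited score of each peak is the authors' value, and which libraries entered a list is not stated in the sources used here.

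Peaks were assigned to RefSeq gene bodies (GRCm38.p6) in Python 3.11.15 with pandas 2.3.3, by a distance of 10 kb or 1 kb from the nearest base of the peak. Strand and start sites came from the RefSeq promoter table. A protein-coding gene was counted as sharing a peak where it had an end within 1 kb of that peak. Overlap between lists needed at least 1 bp. Patterns were searched on both strands of promoter windows of 300 bases. Assignment and search were tested on simulated data. All members are named; other genes are named where a member peak lies within 1 kb of their end or, for other transition zone genes, where all lists or exactly 1 list had a peak. Neighbours of those other genes, Mapk7 and the genes said to be chosen after their values were seen fall outside this rule. Members and lists were chosen with earlier results of these data known. No test was run, since each factor has 1 list.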

Additional observations from a re-analysis of the deposited data

How the results depend on the processing

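No paired analysis was possible because each factor has a single peak list with no column per replicate, and for the same reason no replicate could be left out. Of 59 alternatives, 49 left the value about where it was, which meant within 1.5 times for a count of members or listed genes and, for the share of all genes, inside the 95% Wilson interval of the reported share (counting error only). Some of these 49 could not have changed. With no Foxn4 peak within 10 kb of any member, each Foxn4 setting inside that distance had to return 0 of 8. Every member peak was at least 232 bp wide, so leaving out peaks under 150 bp removed none. Rfx3, already at 8 of 8 members, could not rise with a larger distance. The 10 alternatives that did move follow. Foxn4 reached 1 member within 20 kb, through the peak near B9d1. The share of all genes bound within 1 kb of an end was 8.43% within 500 bp, 9.91% within 2 kb and 5.01% with the upper-scoring peaks for Foxn3. For Foxn4 it was 4.56%, 5.5% and 2.92%, and for Rfx3 10.2%, 12.1% and 5.38%. Within 500 bp, 5 members had Foxn3 and 7 had Rfx3, and Foxn3 was lost at Nphp4 and Tmem67.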

Other observations

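Just outside the 10 kb limit, peaks of all 3 factors lay together 10.2 to 10.6 kb before B9d1 on chromosome 11, at an end of Mapk7, a MAP kinase gene. They spanned 61494201 to 61494687 for Foxn3 (score 25.2, above 39.7% of its list), 61494312 to 61494521 for Foxn4 (score 8, above 57.4%) and 61494141 to 61494932 for Rfx3 (score 300, above 87%).

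Genes in this paragraph were chosen after their values were seen. Cspp1, which encodes a protein of the centrosome and cilium base, counts as unbound within 1 kb but had a pair of peaks inside the gene on chromosome 1, as Tmem67 did. The Cspp1 Foxn3 peak at 10040014 to 10040271 (score 128, above 90.3% of its list) was 1898 bp from the gene end, and the Rfx3 peak at 10039560 to 10040417 (score 232, above 82.2%) was 1444 bp from it. Iqcb1, a partner of Cep290 in photoreceptor cilia, had no peak within 1 kb. High-scoring peaks of all 3 factors lay 2021 to 2150 bp beyond its 3′ end, at ends of Eaf2 and Golgb1. Rpgrip1, the paralogue of Rpgrip1l, had Foxn3 and Foxn4 peaks within 1 kb and no Rfx3 peak there, which no member showed and which was found at 0.288% of all genes. The Rpgrip1 peaks lay at the 5′ end of the annotated gene on chromosome 14, but 6332 bp (Foxn3) and 6405 bp (Foxn4) from its start site in the promoter table, and Hnrnpc shares the site.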
